A study of Mus musculus with 10 samples.

Results

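The mouse mitochondrial genome carries 6 mRNAs for subunits of respiratory complexes III, IV and V: mt-Cytb for complex III, mt-Co1, mt-Co2 and mt-Co3 for complex IV, and mt-Atp6 and mt-Atp8 for complex V. They were chosen by gene name among the alignments to mitochondrial transcripts whose poly(A) tail estimate carried the quality tag PASS. They held 61791 of the 2119882 PASS alignments to annotated transcripts, and were 6 of the 13285 genes with such an alignment. The rule itself used neither tail lengths nor read numbers, but the members were chosen with earlier results of these data known.

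P19 cells, a mouse embryonal carcinoma line labelled wild type, were transfected while undifferentiated with an siRNA against Larp1 (siLarp1) or with a pool of scrambled siRNAs (siCtl). RNA was collected at 24 h in 3 siCtl and 3 siLarp1 libraries, and at 48 h, after a second transfection, in 2 siCtl and 2 siLarp1 libraries. Poly(A) RNA was selected on oligo(dT) beads and sequenced as native molecules on Nanopore flow cells, so that each read gave the transcript and an estimate of its tail length in nucleotides (nt). All 10 libraries came from this line, and siLarp1 rested on a single siRNA, so it is a partial depletion with no second siRNA beside it. The libraries are named here by the numbers in the deposited table, 19, 21 and 22 at 24 h and 24 and 25 at 48 h, in both treatments.

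Mitochondrial mRNAs are cut out of long transcripts of nearly the whole genome, mostly at the tRNAs that lie between them, and a dedicated poly(A) polymerase inside the organelle adds their tails. Several mouse mitochondrial genes end in an incomplete stop codon, which the first adenosines of the tail complete. LARP1 binds cytoplasmic mRNAs with a 5′-terminal oligopyrimidine (TOP) motif, mostly those of ribosomal proteins, and their tails. The comparison of siLarp1 with siCtl asks which tails change when LARP1 is lowered, and here it is read on mRNAs that are made and tailed in another compartment.

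Larp1 itself was read at 75.9, 84.2 and 85.0 reads per 1000000 nuclear PASS alignments (RPM) in the siCtl libraries at 24 h and at 33.4, 44.9 and 19.1 in the siLarp1 libraries. At 48 h it was at 168.6 and 123.1 in siCtl and at 18.5 and 24.9 in siLarp1, so the groups did not overlap at either time. Groups free of overlap in abundance made up 10.9% of all genes tested at 24 h and 33.9% at 48 h. These levels rest on 19 to 36 reads in each siCtl library and 3 to 6 in each siLarp1 library. The libraries held 146734 to 557313 alignments, of which 79.9% to 83.5% carried a PASS tail. All 6 markers of embryonal carcinoma cells were detected, at a summed 3039 to 4006.5 RPM, against 191 to 366 RPM for 4 neuronal markers and at most 6.37 RPM for 4 endoderm markers, of which Sox17 and Afp were at 0. Each 24 h treatment was a pool of its own, so that pool and siRNA cannot be told apart there. At 48 h both treatments shared a barcoded pool, so a read given the wrong barcode there could pass from one treatment to the other. The siLarp1 libraries at 24 h were shallower than the siCtl libraries, with 153274 to 201141 against 384102 to 557313 alignments.

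The annotated ends of the 6 genes are not in every case where a tail begins. Nearly all mt-Atp8 reads ran on into mt-Atp6, as given below. For mt-Co1 the next gene on the same strand begins after a gap of 69 nt. The last 30 bases of each annotated transcript (GENCODE vM21, build GRCm38, plus strand) are given with the stop codon, or what there is of it, in capitals.
mt-Co1, chrM:6843-6872: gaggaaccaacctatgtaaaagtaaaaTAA
mt-Co2, chrM:7667-7696: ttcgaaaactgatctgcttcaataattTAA
mt-Co3, chrM:9361-9390: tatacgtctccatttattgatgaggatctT
mt-Cytb, chrM:15259-15288: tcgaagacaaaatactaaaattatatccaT
mt-Atp6, chrM:8578-8607: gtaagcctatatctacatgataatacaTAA
mt-Atp8, chrM:7940-7969: tatttgcctcattcattaccccaacaaTAA
mt-Co3 and mt-Cytb end in a single T, 1 base beyond their last whole codon, so 2 adenosines of the tail are needed for a TAA stop codon. The other 4 genes encode TAA in full. All 6 transcripts consist of 1 exon and were annotated without untranslated regions.

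mt-Co1 spans chrM:5328-6872 (1545 nt), mt-Co2 chrM:7013-7696 (684 nt), mt-Atp8 chrM:7766-7969 (204 nt), mt-Atp6 chrM:7927-8607 (681 nt), mt-Co3 chrM:8607-9390 (784 nt) and mt-Cytb chrM:14145-15288 (1144 nt). mt-Co3 and mt-Cytb are followed directly by a tRNA gene, mt-Tg and mt-Tt. mt-Atp8 runs into mt-Atp6 without a tRNA between them: the genes share 43 nt, chrM:7927-7969, in different reading frames. mt-Atp6 and mt-Co3 share 1 nt, at position 8607. The start of mt-Atp6, given with its start codon in capitals, lies within mt-Atp8. It shares chrM:7940-7956 with the end of mt-Atp8 shown above, and the start codon lies before that stretch.
mt-Atp6, chrM:7927-7956: ATGaacgaaaatctatttgcctcattcatt

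Tails of these mitochondrial mRNAs, mt-Atp8 aside, were short and mostly 30 to 90 nt long in every library. Over all PASS alignments the median tail was 69.5 nt for mt-Co3, 67.6 nt for mt-Atp6, 66.7 nt for mt-Co1, 58.0 nt for mt-Cytb and 53.5 nt for mt-Co2, against 101.8 nt for nuclear transcripts. Tails of 30 to 90 nt made up 88.3% of mt-Atp6, 88.3% of mt-Co3, 89.5% of mt-Co1, 91.5% of mt-Cytb and 95.8% of mt-Co2 alignments. In nuclear transcripts they were 38.5%, but these pool many genes, with medians from 72.4 to 140.2 nt among 662 of them. The pooled width is thus no measure of the spread within a nuclear gene. Tails under 30 nt were 0.574% of mt-Atp6, 0.795% of mt-Co3, 1.34% of mt-Co2, 1.55% of mt-Co1 and 2.92% of mt-Cytb alignments, beside 2.68% of nuclear ones.

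**Figure D1:**
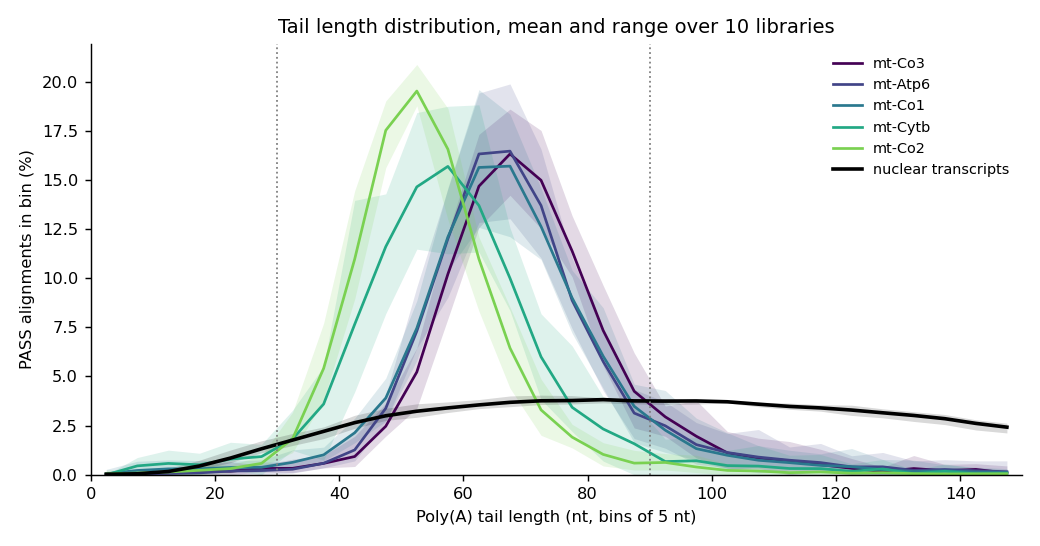
Tail length (x axis, nt, bins of 5 nt, shown up to 150 nt) against the percentage of PASS alignments in each bin (y axis) for 5 mitochondrial mRNAs and for nuclear transcripts; lines are means and bands the lowest and highest of 10 libraries, and dotted lines mark 30 and 90 nt. The mitochondrial mRNAs form single peaks, highest at 50 to 55 nt for mt-Co2, 55 to 60 nt for mt-Cytb and 65 to 70 nt for mt-Co1, mt-Atp6 and mt-Co3. Nuclear transcripts, pooled over many genes, spread widely, with at most 3.82% in a bin.

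Each of the 5 mRNAs had a shorter median tail than the nuclear transcripts of the same library in 10 of 10 libraries. The ratio of the medians was 0.526 for mt-Co2, 0.565 for mt-Cytb, 0.660 for mt-Co1, 0.668 for mt-Atp6 and 0.687 for mt-Co3. An exact two-sided sign-flip permutation test over libraries gave p = 0.00195 for each, the smallest it can give, and an adjusted p of 0.00712 over the 671 genes with at least 20 PASS alignments in every library. Of these genes, 28.2% were called shorter. Ranked from the shortest median tail, the 5 mRNAs took places 5 to 9, behind mt-Nd2, mt-Nd1, mt-Nd4 and mt-Nd3, mRNAs of complex I from the same genome. The shortest median among 662 nuclear genes was 72.4 nt, longer than that of any mitochondrial mRNA in the test.

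The order among the mRNAs was stable from library to library. mt-Co2 was longer than mt-Nd3, its nearest neighbour among complex I mRNAs, in 10 of 10 libraries, by 2.70 ± 1.15 nt (mean ± SD, n = 10 libraries). mt-Cytb exceeded mt-Co2 in 10 of 10, by 3.95 ± 1.65 nt, and mt-Co1 exceeded mt-Cytb in 10 of 10, by 9.66 ± 1.91 nt. mt-Atp6 was above mt-Co1 in 9 of 10 libraries, but only by 0.725 ± 0.700 nt, a mean difference no larger than about 1 SD. mt-Co3 was above mt-Atp6 in 10 of 10, by 1.94 ± 0.971 nt. Of the mRNAs with an incomplete stop codon, mt-Co3 had the longest tails of the 5 and mt-Cytb had tails shorter than all but those of mt-Co2.

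mt-Atp8 could not be measured by the PASS rule. It had 16588 alignments, nearly as many as mt-Atp6 with 18019, but 7 of them carried PASS and 79.5% carried SUFFCLIP, the tag for reads whose alignment stops before the end of the read. Of the reads on mt-Atp8, 14227 aligned to mt-Atp6 as well, which is 85.8% of the mt-Atp8 reads and 79.0% of the mt-Atp6 reads. Counting the chromosome 1 copy of mt-Atp6 in, 16568 of 16588 reads (99.9%) also aligned to the neighbouring gene. The tail was estimated for each read, so 100% of the shared reads carried the same estimate on both genes by construction. The 7 PASS alignments were spread over 5 libraries, with medians from 9.53 to 99.93 nt, and are given no further value here.

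The tail of the joint mt-Atp8 and mt-Atp6 molecule can be read from the SUFFCLIP alignments of mt-Atp8. Their median was 68.1, 65.0 and 70.2 nt in the siCtl libraries and 66.6, 66.1 and 70.6 nt in the siLarp1 libraries at 24 h. At 48 h it was 67.8 and 67.5 nt in siCtl and 68.1 and 68.0 nt in siLarp1. The 24 h groups overlapped, and at 48 h both siLarp1 medians lay above both siCtl medians, by 0.440 nt on average, beside 36.4% of the genes with PASS tails whose medians did not overlap at 48 h. The same molecules make up 79.6% of the PASS alignments of mt-Atp6, so these values are no second measurement. mt-Atp6 molecules with mt-Atp8 sequence had a median tail of 67.8 nt and those without it one of 66.9 nt. Reads that joined mt-Atp6 to mt-Co3 were rare, 209 in all, of which 156 were PASS and made up 1.80% of the mt-Co3 alignments.

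mt-Nd4l, which precedes mt-Nd4 in the same way, had 2918 alignments, 16 of them PASS and 78.6% SUFFCLIP. mt-Nd5 and mt-Nd6 had 321 and 290 PASS alignments, with median tails of 43.8 and 43.1 nt. No PASS alignment to the 2 mitochondrial rRNAs was found.

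Nuclear copies of mitochondrial genes take a share of the reads. Gm28437 on chromosome 1, a copy of mt-Co3, held 2595 PASS alignments against 8683 on mt-Co3, or 23.0% of the sum, and Gm10925, a copy of mt-Atp6, held 2335, or 14.2%. Both share all their 25-base words with the member they copy. Their tails had medians of 68.6 and 67.8 nt, beside 69.5 and 67.6 nt on the mitochondrial genes. Copies of mt-Co1 and mt-Co2 on the same chromosome held 3.98% and 4.58%. The median mapping quality was 1 for mt-Atp6, mt-Co2 and mt-Co3, a value the aligner gives where another place matches about as well, and 60 for mt-Co1 and mt-Cytb. The levels given here leave out the alignments placed on the copies.

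Most reads of the shorter mRNAs covered the whole transcript. Alignments that began within 30 nt of the start and ended within 10 nt of the end made up 86.7% of mt-Atp6, 83.9% of mt-Co2, 83.1% of mt-Co3, 63.1% of mt-Cytb and 58.6% of mt-Co1, the longest. Full-length molecules of mt-Co1, mt-Cytb and mt-Atp6 had longer median tails than the other reads in 10 of 10 libraries, by 1.83 ± 0.878, 3.70 ± 2.48 and 2.29 ± 1.56 nt (mean ± SD, n = 10). For mt-Co2 and mt-Co3 this was so in 9 of 10. The share of full-length mt-Co1 was 46.7% in siCtl library 25 and 46.6% in siLarp1 library 24, and 58.3% to 64.0% in the other 8.

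Both libraries numbered 22 stood apart before any comparison of siRNAs. Tails over 90 nt made up 17.9% of mt-Co1 in siCtl library 22 and 16.4% in siLarp1 library 22, against 4.81% to 8.06% in the other 8 libraries. For mt-Atp6 they were 19.6% and 21.7% against 5.64% to 10.4%, and for mt-Co3 17.8% and 17.5% against 6.06% to 10.8%. mt-Cytb had 10.9% and 10.7% against 2.34% to 4.65%, and mt-Co2 5.25% and 3.89% against 1.42% to 2.76%. All 5 mRNAs thus had the highest shares in the same pair of libraries.

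Nuclear transcripts did not move with them: 59.1% and 60.5% of their tails were over 90 nt in the libraries numbered 22, within the 55.3% to 60.9% of the others. Some complex I mRNAs of the same genome did, at lower shares. In siCtl and siLarp1 library 22, mt-Nd2 had 3.25% and 3.30% against 0.926% to 2.68% in the other 8 libraries, and mt-Nd4 had 3.59% and 3.72% against 0.345% to 3.56%. mt-Nd1 had 2.35% and 2.63%, above the 0.952% to 2.13% of the other 24 h libraries but within the 0.952% to 2.79% of all others. mt-Nd3 had 2.33% and 2.56%, against 0% to 2.37% in the other 24 h libraries and up to 5.51% at 48 h. The excess was seen in each sequencing run of both libraries for mt-Co1, 14.95% to 19.7% in siCtl and 13.4% to 17.1% in siLarp1, and with barcode confidences below 0.9 left out it was 18.7% and 19.2%. mt-Co1 was also read less in these libraries, at 7959 and 8169 RPM against 10670.5 to 11902 RPM in the other 24 h libraries. mt-Cytb was read more, at 2737 and 2566 RPM against 1990 to 2468 RPM, and so were mt-Nd1, mt-Nd2, mt-Nd3 and mt-Nd4. The levels of mt-Co2, mt-Co3 and mt-Atp6 did not stand apart in both. As both treatments have a library 22, these differences lay across the siRNA groups and not between them. Their cause was not tested.

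**Figure D2:**
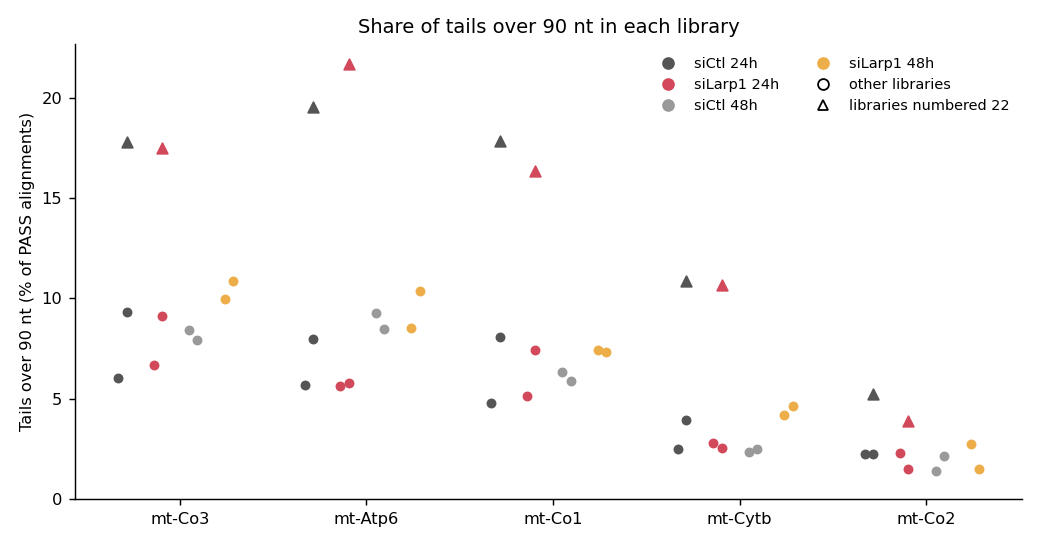
Percentage of PASS alignments with a tail over 90 nt (y axis) for 5 mitochondrial mRNAs (x axis); each symbol is a library, coloured by group, and triangles mark the libraries numbered 22. The 2 triangles of each mRNA lie above all 8 circles, for example at 17.9% and 16.4% for mt-Co1.

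Median tail lengths did not separate siLarp1 from siCtl for any of the 5 mRNAs. Of the complex IV mRNAs, mt-Co1, the catalytic subunit of cytochrome c oxidase, had medians of 68.0, 64.4 and 69.6 nt in siCtl and 67.2, 65.0 and 69.95 nt in siLarp1 at 24 h. At 48 h it had 66.5 and 66.1 nt in siCtl and 66.3 and 66.0 nt in siLarp1. The groups overlapped at both times, and in both treatments library 21 was lowest and library 22 highest at 24 h. The siLarp1 to siCtl log2 ratio was 0.00 (SE 0.03) at 24 h and 0.00 (SE 0.03) at 48 h, with 95% intervals of -4.70% to 5.11% and -4.48% to 4.35%.

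mt-Co2, the subunit that receives electrons from cytochrome c, had medians of 53.6, 53.85 and 55.0 nt in siCtl and 53.4, 54.0 and 54.9 nt in siLarp1 at 24 h. At 48 h they were 52.8 and 51.6 nt in siCtl and 52.8 and 51.1 nt in siLarp1. mt-Co3, the third core subunit, stood at 70.2, 67.6 and 70.9 nt in siCtl and 70.6, 68.3 and 70.7 nt in siLarp1 at 24 h. At 48 h mt-Co3 had 69.2 and 69.5 nt in siCtl and 70.0 and 68.8 nt in siLarp1. Again no group stood clear of its control, and the 95% intervals of the ratio were -4.48% to 4.62% (mt-Co2) and -4.57% to 5.58% (mt-Co3) at 24 h. At 48 h they were -5.75% to 5.27% and -6.51% to 7.06%.

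mt-Cytb, the only mitochondrially encoded subunit of complex III, had medians of 56.3, 57.2 and 62.4 nt in siCtl and 55.6, 57.3 and 61.3 nt in siLarp1 at 24 h. At 48 h it had 56.9 and 54.9 nt in siCtl and 56.6 and 54.1 nt in siLarp1. Its difference was the largest of the 5, -0.533 nt at 24 h and -0.583 nt at 48 h, within the SD of its groups, which was 1.43 to 3.28 nt. mt-Atp6, a subunit of the proton channel of ATP synthase, had 68.0, 64.9 and 69.8 nt in siCtl and 66.7, 66.0 and 70.3 nt in siLarp1 at 24 h. At 48 h its medians were 67.7 and 67.5 nt in siCtl and 67.8 and 67.7 nt in siLarp1.

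**Figure D3:**
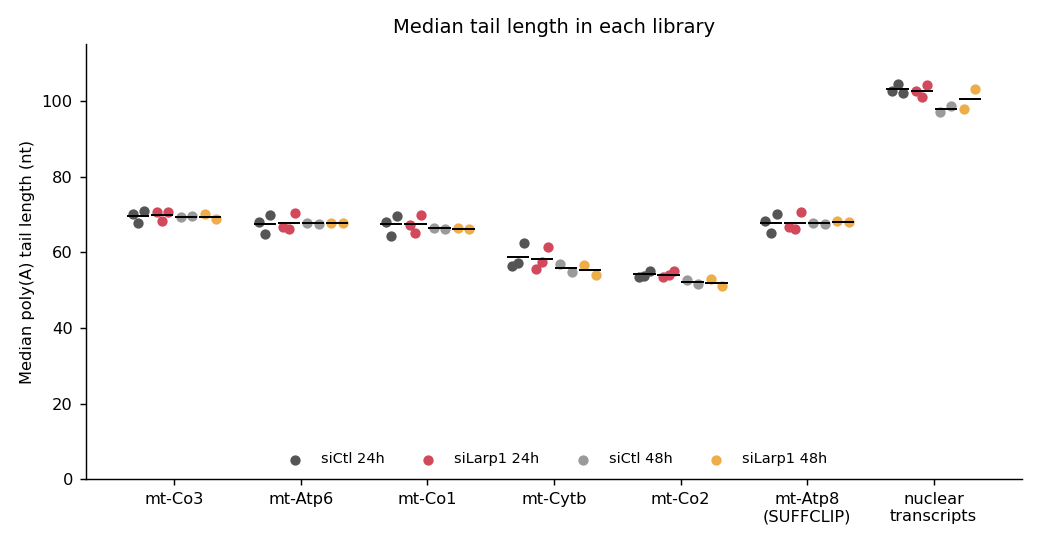
Median tail length in nt (y axis) of 5 mitochondrial mRNAs, of the SUFFCLIP alignments of mt-Atp8 and of nuclear transcripts (x axis); points are libraries, coloured by group, and bars are group means. The siLarp1 points lie among the siCtl points for each mRNA with PASS tails, and every mitochondrial median lies at or below 70.92 nt, beneath all nuclear medians, which start at 97.1 nt.

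None of the 5 mRNAs passed the test of the median tail, limma with adjusted p-values, at 24 h or 48 h (adjusted p from 0.967 to 0.999). It called 0 of 781 genes (0%) at 24 h, with 62 (7.94%) at an unadjusted p under 0.05, and 0 of 750 (0%) at 48 h, with 50 (6.67%). The groups failed to overlap for 0 of the 5 mRNAs at each time, beside 12.9% of all genes at 24 h and 36.4% at 48 h. The median log2 ratio over the 5 mRNAs was 0.00 at both times, and over all genes it was 0.00 at 24 h and 0.04 at 48 h. An exact permutation test within both time points gave p from 0.617 to 0.983 for the 5 mRNAs, with 0.0167 as its smallest possible value. A barcode confidence of at least 0.9 was reached by 57.9% (mt-Atp6) to 76.6% (mt-Co1) of their PASS alignments. For nuclear transcripts it was 87.0%. With lower confidences left out, 0 of the 5 mRNAs passed for the median tail at either time. Whether reads given the wrong barcode made the groups more alike was not tested.

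Tails under 30 nt were few, and their share passed the test in none of the 5 mRNAs at 24 h or 48 h. At 24 h mt-Co1 had 1.36%, 1.55% and 1.19% in siCtl and 0.938%, 1.19% and 0.935% in siLarp1. mt-Cytb had 2.66%, 1.75% and 2.07% in siCtl and 3.65%, 2.44% and 2.48% in siLarp1, with overlap. Both groups of mt-Co3 lay between 0.326% and 1.12%, those of mt-Atp6 between 0.235% and 0.619%, and those of mt-Co2 between 0.981% and 1.47%.

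The log2 odds ratios at 24 h ran from -0.39 for mt-Co1 to 0.45 for mt-Cytb, with a median of 0.05, whereas the median over all 321 genes tested was 0.65. Of those genes, limma called 4 (1.25%), all higher in siLarp1, and none of them was one of the 5 mRNAs (adjusted p from 0.24 to 0.974). At an unadjusted p under 0.05 there were 91 genes (28.3%) and 0 of the 5 mRNAs. The groups did not overlap for 26.8% of genes and for 0 of the 5 mRNAs. With each library of the time point thinned to the same number of alignments, limma called 0 genes.

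At 48 h mt-Co3 had 1.11% and 1.16% of tails under 30 nt in siCtl and 1.64% and 1.59% in siLarp1, and was the only 1 of the 5 mRNAs whose groups did not overlap. Over all genes the groups did not overlap for 50.8%, with siLarp1 higher for 43.6%. Its log2 odds ratio was 0.49 (SE 0.32, limma adjusted p = 0.424). mt-Cytb had 4.68% and 3.86% in siCtl and 4.38% and 4.65% in siLarp1, the highest shares of the 5. The median over the 5 mRNAs was 0.09 and that over all 305 genes 0.62, with 0 genes called (0%) and 54 (17.7%) at an unadjusted p under 0.05, none of them among the 5.

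The share of tails of 30 to 90 nt differed most at 48 h. mt-Co3 had 90.5% and 90.9% in siCtl and 88.4% and 87.6% in siLarp1, and mt-Cytb had 93.0% and 93.7% in siCtl and 91.4% and 90.7% in siLarp1. mt-Co1 had 91.2% and 92.4% in siCtl and 89.2% and 91.0% in siLarp1. For these 3 of the 5 mRNAs both siLarp1 libraries lay below both siCtl libraries, which was so for 35.1% of the 305 genes tested. Groups free of overlap in either direction made up 45.6%.

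limma gave log2 odds ratios of -0.41 (SE 0.16) for mt-Co3, -0.45 (SE 0.18) for mt-Cytb and -0.30 (SE 0.13) for mt-Co1, with unadjusted p of 0.011, 0.0129 and 0.0263 and adjusted p of 0.214, 0.214 and 0.293. These did not pass, as none of the 305 genes did (0%, with 44, or 14.4%, at an unadjusted p under 0.05), and the median over all genes was -0.17. Most of the difference lay in tails over 90 nt, which were 2.41% of mt-Cytb in siCtl and 4.41% in siLarp1 (means), 8.17% and 10.4% of mt-Co3, and 6.09% and 7.37% of mt-Co1. Here both siLarp1 libraries lay above both siCtl libraries, as for 27.9% of genes, or 43% in either direction.

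At 24 h the share of tails of 30 to 90 nt had its lowest value in library 22 of each treatment. It was 88.4% ± 6.62 in siCtl and 89.3% ± 5.83 in siLarp1 for mt-Co1 (mean ± SD, n = 3), and 88.4% ± 6.34 and 88.3% ± 6.08 for mt-Co3. The groups overlapped for all 5 mRNAs, beside 16.5% of genes without overlap, and so did the shares over 90 nt, beside 19.9%. mt-Co2 was steadier at 95.5% ± 1.81 and 96.3% ± 1.09. limma called 0 of 321 genes (0%) at 24 h, with 27 (8.41%) at an unadjusted p under 0.05, and log2 odds ratios of the 5 mRNAs ran from -0.10 to 0.26. Without both libraries numbered 22 they ran from -0.14 for mt-Cytb to 0.26 for mt-Atp6, and still none passed.

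The 6 mRNAs were read at similar levels in all groups. Together they held 27375 RPM in siCtl library 25 to 33105 RPM in siLarp1 library 21, and were 2.65% to 3.18% of the PASS alignments of a library. In such bulk RNA, fewer cells with an mRNA and less of it per cell cannot be told apart. RPM is a ratio, so a change in these mRNAs and an opposite change in nuclear alignments cannot be told apart either. In reads, mt-Co1 led with a median of 10227.5 RPM over the 10 libraries, followed by mt-Co2 with 7099.8, mt-Atp6 with 7083, mt-Co3 with 4300.05 and mt-Cytb with 2377. A read stands for 1 molecule whatever its length, but reads placed on the copies noted above are left out. The copies held 23.0% of the sum for mt-Co3, 14.2% for mt-Atp6 and 4.58% for mt-Co2. The close order of mt-Co2 and mt-Atp6 is therefore not settled by these levels.

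mt-Co2 was the 1 mRNA whose levels at 24 h did not overlap between the groups. It stood at 7037, 6516 and 6653 RPM in siCtl and at 7317, 7162 and 7692 RPM in siLarp1, whose mean was 109.7% of the siCtl mean. Every siLarp1 library lay above every siCtl library, which was so for 4.72% of the 4811 genes tested (10.9% in either direction), with an exact permutation p of 0.1, the smallest that 3 against 3 libraries allow. limma gave a log2 ratio of 0.14 (SE 0.04) with an unadjusted p of 0.00226 and an adjusted p of 0.776. The result did not keep its side of the threshold under every setting. With no minimum of alignments the log2 ratio was 0.15 and the limma adjusted p 0.000438. That fit took in 12800 genes, with a median log2 ratio of 0.25 over all of them. In it, 1230 genes were higher and 192 lower in siLarp1 at a limma unadjusted p under 0.05. With the library number as a block, limma also called mt-Co2, as given under the dependence on processing. At 48 h the groups of mt-Co2 overlapped, at 7514 and 6211 RPM in siCtl and 7163 and 6777 RPM in siLarp1, and the log2 ratio was 0.07 (SE 0.08).

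mt-Co1 had 10920.2, 10693 and 7959 RPM in siCtl and 10670.5, 11902 and 8169 RPM in siLarp1 at 24 h. mt-Co3 had 4918, 4413 and 4188 RPM in siCtl and 4939, 4583 and 4553 RPM in siLarp1. mt-Cytb had 2468, 1989.9 and 2737 RPM in siCtl and 2286, 2146 and 2566 RPM in siLarp1. mt-Atp6 had 7672, 6449 and 7074 RPM in siCtl and 7091, 7297 and 7195 RPM in siLarp1. In each the groups overlapped, and the log2 ratios lay between -0.04 for mt-Cytb and 0.07 for mt-Co3.

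At 48 h mt-Co1 had 9821 and 9737 RPM in siCtl and 8996 and 10634 RPM in siLarp1, and mt-Cytb had 3034 and 2031 RPM and 2955 and 2140.1 RPM. mt-Co3 had 4009.9 and 3385 RPM in siCtl and 3769.8 and 3136 RPM in siLarp1, and mt-Atp6 had 7559 and 6009.9 RPM and 6306 and 6313 RPM. For mt-Cytb, mt-Co3 and mt-Co2 the library numbered 24 was above the library numbered 25 in both treatments. The log2 ratios lay between -0.06 and 0.10, and 0 of the 5 mRNAs were free of overlap, beside 33.9% of genes.

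limma voom called 0 of 4811 genes (0%) at 24 h, with 259 (5.38%) at an unadjusted p under 0.05, and 0 of 2715 (0%) at 48 h, with 132 (4.86%). Larp1 was among the genes not called, though siLarp1 stood at 39.7% of the siCtl mean at 24 h and 14.9% at 48 h. It had 87 and 13 reads in siCtl and siLarp1 at 24 h, and 41 and 6 at 48 h. A gene not called is thus not shown to be unchanged. The 95% intervals of the 24 h ratio were -9.27% to 14.8% for mt-Co1, 3.88% to 17.5% for mt-Co2, -3.25% to 14.5% for mt-Co3, -14.6% to 11.4% for mt-Cytb and -4.44% to 10.5% for mt-Atp6. SUFFCLIP reads of mt-Atp8 gave 6729.95 ± 618 RPM in siCtl and 6808 ± 126 in siLarp1 at 24 h (mean ± SD, n = 3), and 6137 ± 1358 and 5694 ± 147 at 48 h (n = 2). Over both times the exact permutation p of the level was 0.267 for mt-Co2 and 0.8 to 0.983 for the other 4 mRNAs.

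**Figure D4:**
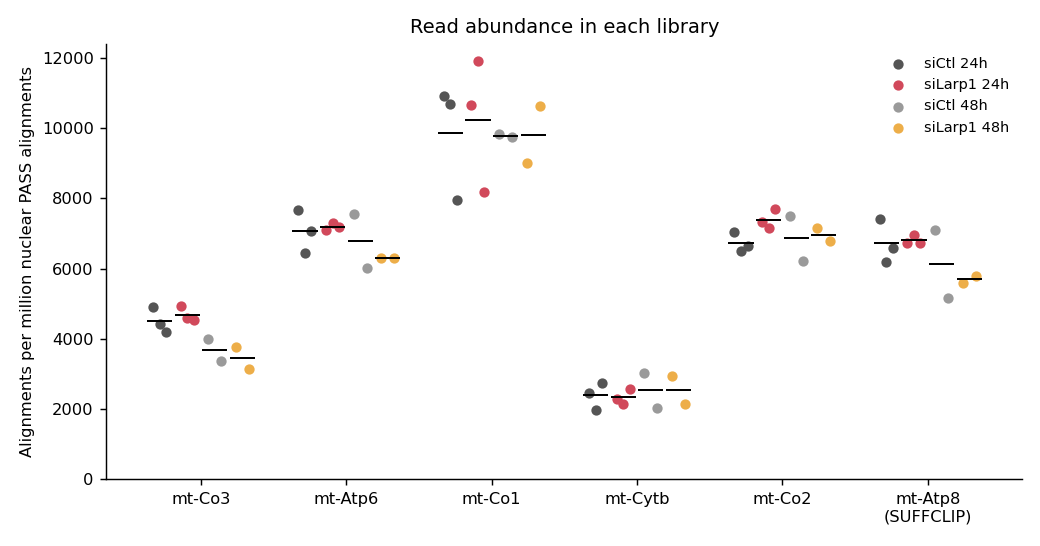
Reads per 1000000 nuclear PASS alignments (y axis) of 5 mitochondrial mRNAs and of the SUFFCLIP alignments of mt-Atp8 (x axis); points are libraries, coloured by group, and bars are group means. The siLarp1 libraries of mt-Co2 at 24 h (7162 to 7692) lie above the siCtl libraries (6516 to 7037), and the other groups of the 5 mRNAs overlap.

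**Figure D5:**
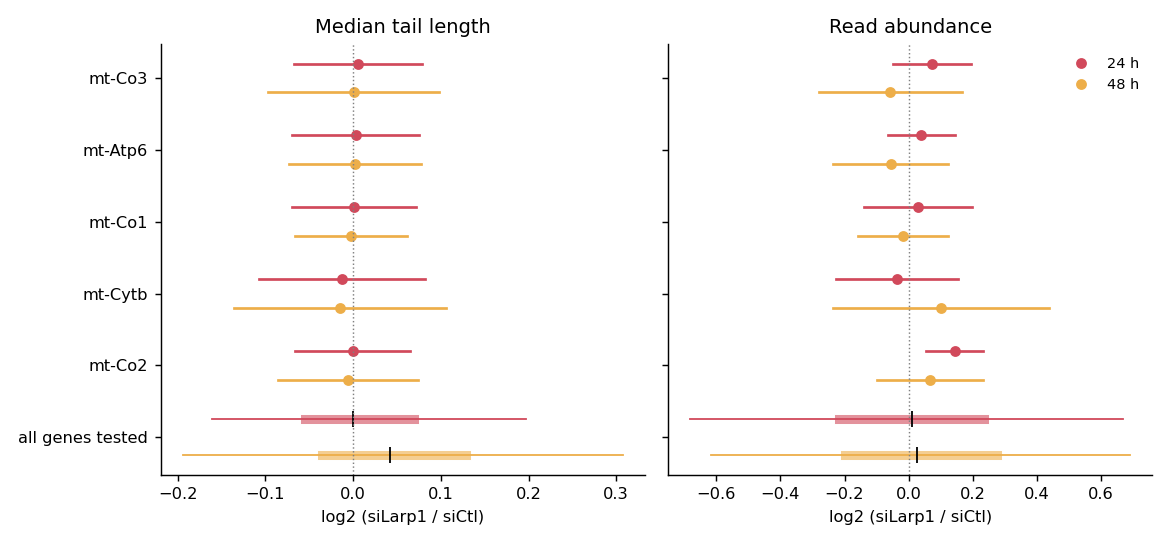
log2 ratio of siLarp1 to siCtl (x axis) of the median tail length (left) and of the read abundance (right) for 5 mitochondrial mRNAs at 24 h and 48 h, with 95% intervals from limma; for all genes tested the thin line spans the 5th to 95th percentile, the thick line the quartiles, and the tick is the median. Every interval crosses 0 except that of mt-Co2 abundance at 24 h, whose log2 ratio was 0.14.

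The siLarp1 effect did not differ detectably between 24 h and 48 h for any of the 5 mRNAs. The interaction term of limma called 0 of 671 genes for the median tail (48 at an unadjusted p under 0.05) and 0 of 5869 for abundance (254). For the share under 30 nt and the share of 30 to 90 nt it called 0 of 290 genes each (15 and 28). The largest difference in abundance among the 5 mRNAs was 0.15 (SE 0.17) on the log2 scale, for mt-Cytb.

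Subunits of the same complexes that are encoded in the nucleus and made in the cytoplasm had the longer tails of nuclear mRNAs. Of the complex III genes with the most reads, median tails over the 10 libraries ran from 96.0 to 107.3 nt for Uqcrq, 79.5 to 107.1 nt for Uqcrh and 88.1 to 112.4 nt for Uqcr10. Of complex IV they ran from 98.6 to 114.3 nt for Cox7c and from 105.2 to 122.0 nt for Cox4i1, and Cox8a had at least 101.8 nt. Of complex V they ran from 98.5 to 109.1 nt for Atp5b and 91.4 to 109.9 nt for Atp5a1, the subunits of its catalytic ring, and 91.3 to 106.4 nt for Atp5g3, a gene for the ring subunit of the proton channel. None of these ranges reached down to the 70.9 nt of mt-Co3 in siCtl library 22.

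Under siLarp1, 0 of 8 measured nuclear complex III genes, 0 of 12 of complex IV and 0 of 18 of complex V passed the test of the median tail at 24 h. Their median log2 ratios were -0.03, -0.02 and -0.03, beside 0.00 for the 5 mitochondrial mRNAs. At 48 h 0 of 9, 0 of 12 and 0 of 18 passed, with medians of 0.05, 0.06 and 0.04. In abundance 0 of 9, 0 of 12 and 0 of 18 passed at each time. Of 27 genes for the mitochondrial transcription, processing, tailing and decay of RNA, 19 had enough reads for abundance at 24 h and 8 at 48 h, and 0 passed at either time. The 4 complex I mRNAs tested for the median tail had medians of -0.01 at both times, with 0 passing. For the share under 30 nt, their median log2 odds ratios were -0.14 at 24 h and 0.41 at 48 h, beside 0.05 and 0.09 for the 5 mRNAs. Nuclear complexes III, IV and V had medians of 0.27, 0.86 and 1.13 at 24 h, over 4, 11 and 16 genes. At 48 h these were 1.11, 0.18 and 0.71, over 3, 11 and 13 genes, and 0 passed at either time.

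Across the 10 libraries, the nuclear genes whose log2 RPM followed the summed RPM of the 6 mRNAs most closely were Fabp5 (Pearson r = 0.82), Fkbp4 (0.78), Rpl22 (0.72), Nhp2 (0.70) and Rps27a (0.70), out of 285 genes with a median r of 0.17. All points share the library total they were divided by, and the summed level varied little, with an SD of 0.09 on the log2 scale.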

How the data were processed

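Native poly(A) RNA of P19 cells was sequenced on Nanopore R9 flow cells. The authors called bases with Guppy, aligned reads with minimap2 2.20 (map-ont) to mm10 with GENCODE vM17 transcripts and RNA standards, assigned barcodes with Deeplexicon and estimated tail lengths in nucleotides with Nanopolish. They left mitochondrial transcripts and pseudogenes out of their own tests. The deposited table has 1 line per alignment (2652217 in all) with the tail length, its quality tag, the barcode confidence, a fraction from 0 to 1 as deposited, and the mapping quality, a score the authors' aligner gave. No value had been normalized, and gene-level values were computed here.

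Alignments tagged PASS (81.4%) were tallied by gene and library. RPM stands for reads per 1000000 nuclear PASS alignments, with pseudogenes and repeats left out. Median tails (genes with at least 20 alignments in every library) and shares (at least 50) were log2-transformed and fitted in limma 3.58.1 (R 4.3.3), with 0.5 added to each tally for the log2 odds, and abundance (at least 30 alignments at the time point) with limma's voom. Each time point was fitted on its own, and p-values were adjusted over all genes (Benjamini-Hochberg, threshold 0.05, two-sided). Differences are siLarp1 minus siCtl. Exact permutation tests over libraries, in Python 3.11.15, cannot go below 0.1 at 24 h or 0.333 at 48 h. The fits were tested on simulated data. All members, the named nuclear partners (the 3 of each complex with the most alignments) and the 5 nuclear genes most like the members were named by rule, and members and lists were chosen with earlier results of these data known. The libraries are called biological replicates by the methods, but which labelled replicate each number is was not given in the sources used here. Where they were not separate cultures, p-values measure only the spread between these libraries. Alternatives tried were other quality tags, filters, tail cuts, barcode confidence, uniquely aligned reads, nuclear copies added, thinning, a replicate block and leaving libraries out.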

Additional observations from a re-analysis of the deposited data

Results flagged for a closer look

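Uqcrh, a nuclear gene for the hinge subunit of complex III, stood apart between the siRNAs in opposite directions at the 2 times. At 24 h the siCtl libraries had a median tail of 99.0 ± 4.55 nt and the siLarp1 libraries one of 85.2 ± 5.10 nt (mean ± SD, n = 3), a difference of -13.8 nt, with every siLarp1 library below every siCtl library. At 48 h the values were 82.6 ± 4.39 nt for siCtl and 103.3 ± 5.49 nt for siLarp1 (n = 2), a difference of 20.6 nt, with both siLarp1 libraries above both siCtl libraries. Over all genes tested, the groups did not overlap for 12.9% at 24 h and for 36.4% at 48 h. The limma log2 ratios were -0.22 (SE 0.07, adjusted p = 0.372) and 0.32 (SE 0.11, adjusted p = 0.717). The limma interaction was 0.54 (SE 0.12), with an unadjusted p of 0.00018, the smallest among the 671 genes. Its adjusted p was 0.121, which did not pass. Uqcrfs1, also of complex III, went the other way, at -0.60 (SE 0.18, limma adjusted p = 0.287). The cause was tested for neither gene.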

How the results depend on the processing

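Of 300 member values recomputed with another tag, filter, cut, scaling or set of libraries (single libraries left out aside), 265 kept their direction and their side of the threshold, 33 changed sign without being called in either case, and 2 became called. Both were the abundance of mt-Co2 at 24 h, with a log2 ratio of 0.15 and a limma adjusted p of 1.71e-06 with the replicate block, and 0.15 and 0.000438 with no minimum of alignments; over its alternatives without a library left out, no other setting called it, with adjusted p from 0.544 to 0.948. The cause was not tested. Thinning, adding the nuclear copies and leaving out both libraries numbered 22 were chosen after seeing the data. Few tails under 30 nt per library limit those shares, and 2 libraries per group limit every 48 h value.

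The library numbers were not taken as pairing in the main fits, and the sources did not say whether libraries of the same number belong together. At 24 h same-numbered libraries had correlations of deviations of 0.063, 0.131 and 0.153 for tails and 0.089, 0.302 and 0.302 for abundance, every library correlating best with its own number. Unlike numbers had -0.126 to -0.00889 for tails and -0.270 to -0.0279 for abundance. At 48 h same-numbered libraries had -0.048 for tails and 0.112 for abundance. The main fits thus make no allowance for a difference shared by libraries of the same number. With the replicate block, limma called 18 genes for abundance at 24 h (1 member) and 4 at 48 h. It called 0 and 18 for the share under 30 nt, and 1 for the median tail at 24 h. The log2 ratio of mt-Co1 abundance at 48 h changed sign with the block, from -0.0186 to 0.0074, and was not called.

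Counts of genes called otherwise moved as follows. For abundance they were 1 with all quality tags, 15 with no minimum (1 member) and 2 without both libraries numbered 22 at 24 h, and 12 with no minimum at 48 h. For the share under 30 nt at 24 h, against 4 as reported, they were 5 with all quality tags, 5 at a barcode confidence of at least 0.9, 15 in reads with 1 alignment, and 0 after thinning, with 0.1 added, under 20 nt, and without both libraries numbered 22. At 48 h they were 20 with all quality tags and 2 after thinning. For the median tail they were 1 at a barcode confidence of at least 0.9 and 1 with at least 100 alignments at 24 h, and 2 with all quality tags and 1 at that confidence at 48 h. The share of 30 to 90 nt had 1 at 24 h without both libraries numbered 22.

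The sign changes, on the log2 scale and all uncalled, were these. With all quality tags, mt-Atp6 had -0.090 and 0.56 for the share under 30 nt at 24 h and 48 h and -0.0031 for the tail at 48 h, mt-Co1 0.0030 for the tail at 48 h, mt-Co2 0.094 for the share under 30 nt at 48 h, mt-Co3 0.031 for the share of 30 to 90 nt and -0.0025 for the tail at 24 h, and mt-Cytb 0.042 for the share of 30 to 90 nt at 24 h. At a confidence of at least 0.9, mt-Atp6 had -0.035 for the share of 30 to 90 nt and -0.66 for that under 30 nt at 24 h, mt-Co2 0.088 for the latter at 24 h and mt-Cytb -0.44 at 48 h. Without both libraries numbered 22, mt-Atp6 had -0.16 for the share under 30 nt and -0.0012 for the tail, mt-Co1 -0.0016 for the tail, mt-Co2 0.034 for the share under 30 nt and mt-Cytb 0.013 for abundance. After thinning, mt-Atp6 had -0.030 and 0.064 and mt-Co2 0.11 (48 h) for the share under 30 nt, and mt-Cytb 0.015 for that of 30 to 90 nt at 24 h. By the mean of log2 tails, mt-Co2 had 0.012 and mt-Cytb 0.0028 at 48 h and mt-Co3 -0.0024 at 24 h. In reads with 1 alignment, mt-Atp6 had -0.30 for the share of 30 to 90 nt at 24 h, and 0.31 for that under 30 nt and -0.058 for the tail at 48 h. Under 20 nt, mt-Atp6 had 0.73 at 48 h and mt-Co3 -0.35 at 24 h and -0.060 at 48 h. With 0.1 added, mt-Atp6 had -0.043 under 30 nt at 24 h, and with the copies added the tail of mt-Co2 was at 0.0013 at 24 h.

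With each library left out in turn, no member was called, and 60 of 200 member values changed sign. A group left with 1 library at 48 h was assumed to vary like the other. Genes called ranged from 0 to 2 for abundance at 24 h (2 without siCtl library 22), 0 to 7 for the share under 30 nt at 24 h (0 without siCtl library 19, siCtl library 21 or siLarp1 library 22, 2 without siCtl library 22 and 7 without siLarp1 library 19), 0 to 26 for it at 48 h (26 without siCtl library 24 and 12 without siCtl library 25) and 0 to 16 for the share of 30 to 90 nt at 48 h (16 without siLarp1 library 24). Member values that changed sign had these ranges. The median tail at 24 h ranged from -0.026 to 0.026 (mt-Atp6), -0.031 to 0.027 (mt-Co1), -0.011 to 0.011 (mt-Co2), -0.015 to 0.022 (mt-Co3) and -0.052 to 0.033 (mt-Cytb). At 48 h it ranged from -0.0063 to 0.0015 (mt-Co1), -0.029 to 0.018 (mt-Co2), -0.013 to 0.014 (mt-Co3) and -0.048 to 0.018 (mt-Cytb). The share under 30 nt ranged from -0.19 to 0.40 (mt-Atp6), -0.27 to 0.025 (mt-Co2) and -0.20 to 0.60 (mt-Co3) at 24 h, and from -0.67 to 0.40 (mt-Atp6), -0.32 to 0.72 (mt-Co1), -0.42 to 0.060 (mt-Co2) and -0.052 to 0.23 (mt-Cytb) at 48 h. The share of 30 to 90 nt ranged from -0.46 to 0.82 (mt-Atp6), -0.38 to 0.59 (mt-Co1), -0.066 to 0.48 (mt-Co2), -0.51 to 0.41 (mt-Co3) and -0.57 to 0.33 (mt-Cytb) at 24 h, and from -0.23 to 0.10 (mt-Atp6) and -0.20 to 0.13 (mt-Co2) at 48 h. Abundance ranged from -0.029 to 0.089 (mt-Atp6), -0.12 to 0.21 (mt-Co1) and -0.17 to 0.092 (mt-Cytb) at 24 h, and from -0.26 to 0.070 (mt-Atp6), -0.12 to 0.12 (mt-Co1), -0.10 to 0.17 (mt-Co2), -0.21 to 0.059 (mt-Co3) and -0.24 to 0.34 (mt-Cytb) at 48 h.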
